A study of Rattus norvegicus with 14 samples.

Results

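The growth hormone receptor and insulin-like growth factor (IGF) axis was described in rat liver through 6 genes: Ghr, Igf1, Igfals, Igfbp1, Igfbp2 and Igfbp3. They were chosen by gene symbol, as the probe sets whose platform annotation names one of them, and all 6 had at least 1 of the 17 probe sets found among 4502 on the array. A probe set is a group of short probes for 1 transcript. Of the 17, 15 had a value on every array. For 5 genes the probe set with the highest mean was bright enough to be tested, among 1909 features tested in all; Igfbp2 was not and is given as signals.

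The 14 arrays, each hybridised with biotin-labelled liver RNA, fell into 6 groups: 3 arrays of Wistar controls on standard chow, 2 of Wistar rats at day 3 and 3 at day 14 of chow with 1% orotic acid, and 2 each of rats labelled Kyoto at days 1, 3 and 14 of the same diet. Rats came from Charles River UK and ate ad libitum, and RNA came from the left lateral lobe; age, sex and genotype are not given in the labels used here. Orotic acid is an intermediate of pyrimidine synthesis that brings on a fatty liver in rats. Kyoto controls and Wistar rats at day 1 were not analysed here, so a strain difference in fed rats cannot be told apart from a difference already there before feeding. Since nothing in the labels ties every array to its own animal, p-values measure only the spread between these samples, which may be technical.

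Growth hormone from the pituitary binds its receptor on hepatocytes, and signalling through JAK2 and STAT5B switches on transcription of Igf1 and Igfals. The liver secretes IGF-1, most of which circulates in a complex with IGF binding protein 3 and the acid-labile subunit, the product of Igfals, which lengthens its life in blood. Binding proteins 1 and 2 carry IGF-1 in smaller complexes, and hepatic Igfbp1 is known for its fall with insulin and its rise in fasting.

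The tissue label was checked against markers: 7 of 8 hepatocyte genes were measured, with a summed signal of 123300 to 138100 over the arrays, while Epcam, a bile duct marker, lay at the floor on all 14. The floor, the 25th percentile of all normalized signals (signal 115), is the level to which dimmer values were raised. Some arrays stood apart. The array labelled Wistar control 2 lay at 0.92 on a scale over 78 strain features that runs from fed Wistar at 0 to fed Kyoto at 1, where the other controls lay at 0.087 and 0.069. The array nearest to it was Kyoto day 3 replicate 2 (r = 0.96 across features). Its log2 signals of Ces2e (6.85) and Mst1 (7.33) lay in the Kyoto range, up to 6.85 and 8.1, while the other Wistar arrays had 10.09 or more and 10.44 or more. Its values thus go against its strain label, and every control mean below includes it unless it is said to be left out. It carried the highest control signal of each of the 6 genes. The array labelled Wistar day 14 replicate 3 was nearest to Wistar control 3 (r = 0.97 across features); both have 374 or 375 blank rows and no lot batch in their labels, while 11 arrays carry lot batch 1. Kyoto day 1 replicate 1 also has blank rows and was the array least like the others. Its nearest array was at r = 0.928 across features, against 0.957 or more for every other array. Its median r was 0.895, against 0.933 or more. It carried the highest Kyoto signals of Igfbp1 (2517) and Igfbp3 (788).

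The sequences just upstream of 4 of these genes are shown. These 4 were picked because the strain comparisons below are mainly about Ghr and Igfals, and Igfbp1 and Igfbp3 varied together from array to array. A link between sequence and signal was not tested. Each run holds the 250 bases before the annotated start, 5′ to 3′ on the gene's own strand, from RefSeq on build GRCr8; capitals mark matches to the motifs named next.
Ghr (chr2:54432076-54432325, minus strand): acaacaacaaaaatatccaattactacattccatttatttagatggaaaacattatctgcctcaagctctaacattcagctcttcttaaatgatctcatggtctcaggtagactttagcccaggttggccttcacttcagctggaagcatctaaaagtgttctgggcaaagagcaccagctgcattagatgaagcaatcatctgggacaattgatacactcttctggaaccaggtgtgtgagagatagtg
Igfals (chr10:14403600-14403849, plus strand): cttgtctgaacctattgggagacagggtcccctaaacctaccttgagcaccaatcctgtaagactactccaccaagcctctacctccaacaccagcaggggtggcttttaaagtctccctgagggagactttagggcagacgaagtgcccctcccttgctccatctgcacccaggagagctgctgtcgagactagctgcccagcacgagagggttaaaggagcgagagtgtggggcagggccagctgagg
Igfbp1 (chr14:86261027-86261276, plus strand): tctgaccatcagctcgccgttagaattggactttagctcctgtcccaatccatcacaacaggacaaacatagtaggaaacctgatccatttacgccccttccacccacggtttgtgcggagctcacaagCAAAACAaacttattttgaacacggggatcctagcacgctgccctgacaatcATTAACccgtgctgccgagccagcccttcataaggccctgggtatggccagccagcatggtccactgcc
Igfbp3 (chr14:86277945-86278194, minus strand): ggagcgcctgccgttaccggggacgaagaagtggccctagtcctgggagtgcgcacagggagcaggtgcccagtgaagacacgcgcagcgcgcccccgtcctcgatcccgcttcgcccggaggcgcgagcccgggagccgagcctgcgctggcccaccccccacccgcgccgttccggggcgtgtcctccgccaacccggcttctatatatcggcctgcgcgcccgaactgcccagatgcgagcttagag
The motifs searched, on both strands, were the STAT5 site TTCNNNGAA, the insulin response element core CAAAACA, the forkhead site GTAAACA, the C/EBP site TTGCNNAA, the TATA box TATAAA and the HNF1 site ATTAAC; no match overlapped another. The insulin response element core CAAAACA lay in the Igfbp1 window from base -121 to -115, counted from the start, and in the Igf1 window, not printed, from -67 to -61. Of all 33469 promoter windows of this length, 5.46% hold it. The HNF1 site ATTAAC lay in the Igfbp1 window from -69 to -64 and in 6.45% of all windows. None of the 6 members' windows held the other motifs, which 7.67% (TTCNNNGAA), 3.21% (GTAAACA), 9.22% (TTGCNNAA) and 12.9% (TATAAA) of all windows hold. G and C made up 52.8% of the Igfbp1 window and 71.6% of the Igfbp3 window, against a median of 51.2%. The 2 genes are neighbours on chromosome 14, on opposite strands, with 0 protein-coding genes between them in the annotation.

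Ghr, the gene of the receptor, had low signals of its brightest probe set in 4 of the 5 fed Wistar livers. At Kyoto days 1 and 3 of feeding the signals of that probe set lay in or near the range of the Wistar controls. The other Ghr probe sets, described below, did not follow the brightest. The brightest read 6729, 9532 and 5604 on the 3 Wistar control arrays (deposited signal units, as in all array values below). It read 1876 and 1850 on the 2 Wistar day 3 arrays, and 2567, 1596 and 8545 on the 3 Wistar day 14 arrays. Every day 3 array lay below every control, whereas at day 14 the first and second arrays lay below the controls and the third lay among them.
In Kyoto rats Ghr read 5313 and 6166 at day 1, 5489 and 6147 at day 3, and 4328 and 3534 at day 14. All 6 Kyoto arrays therefore lay above both Wistar day 3 arrays, and the 2 at day 14 were the lowest of the 6. Of all features, 19.1% were lower with no overlap at Kyoto day 14 than at day 1, and 23% than at day 3. The normalized log2 differences of Ghr were -0.61 from day 1 (limma adjusted p = 0.686) and -0.46 from day 3 (limma adjusted p = 0.979). Neither passed the threshold of 0.05.

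On the log2 scale after quantile normalization, Ghr differed by -1.60 ± 0.43 between Wistar day 3 and control (3.03-fold lower, 2 against 3 arrays; limma, Benjamini-Hochberg adjusted p = 0.244; here and below ± is the standard error of the difference). That did not pass the threshold of 0.05, which 0 of 1909 features passed (0%; 200 had an unadjusted p under 0.05), and 19.6% of features had all day 3 arrays below all controls. At day 14 the difference was -1.08 ± 0.38 (2.11-fold lower, adjusted p = 0.893), again where 0% of features passed and 99 had an unadjusted p under 0.05.
These calls changed with the arrays and the fit. Without Wistar day 14 replicate 3 the difference from control was -1.68 at day 14 (adjusted p = 0.00909) and -1.58 at day 3 (adjusted p = 0.0169). Without the array labelled Wistar control 2 they were -0.94 (adjusted p = 0.999) and -1.46 (adjusted p = 0.52). Without both arrays they were -1.53 (adjusted p = 0.0418) and -1.44 (adjusted p = 0.0374). A fit of the day 3 and control arrays alone, which no day 14 array enters, gave -1.60 (adjusted p = 0.0359), and array weights, with all 14 arrays, gave -1.52 at day 3 (adjusted p = 0.0385).
Within lot batch 1 the day 14 difference was -1.82 (2 against 2 arrays), and between the 2 arrays with no lot batch given it was 0.40. Within lot batch 1 the day 3 difference was -1.77 (1 against 2 arrays), and it was -1.31 (1 against 1) where no lot batch is given.

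Between strains, Ghr was 1.45 ± 0.47 log2 higher in Kyoto than in Wistar rats at day 3 (2.73-fold, 2 against 2 arrays, adjusted p = 0.196), with no overlap, as for 28.5% of features. At day 14 the difference was 0.47 ± 0.43 (adjusted p = 0.865), and over the mean of days 3 and 14 it was 0.96 ± 0.32 (adjusted p = 0.135). None of these passed. Without Wistar day 14 replicate 3 the difference was 1.43 at day 3 (adjusted p = 0.0278) and 1.26 over both days (adjusted p = 0.00437), both past the threshold. The change from day 3 to day 14 differed between strains by -0.98 ± 0.64 (adjusted p = 0.877) with a 95% interval from -2.35 to 0.39.

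The other Ghr probe sets did not follow the brightest one. One of them read 402 to 438 on the controls and 347 and 564 on the Wistar day 3 arrays, a difference of 0.13 ± 0.40. It correlated with the brightest at r = 0.245 over the 14 arrays. The last, at 64.1 to 181 and at the floor on 7 arrays, gave -0.09 ± 0.19. With the mean of the probe sets in place of the brightest, the Ghr difference at day 3 was -0.52. Which stretch of the transcript each probe set reads is not given in the sources used here.

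**Figure D1:**
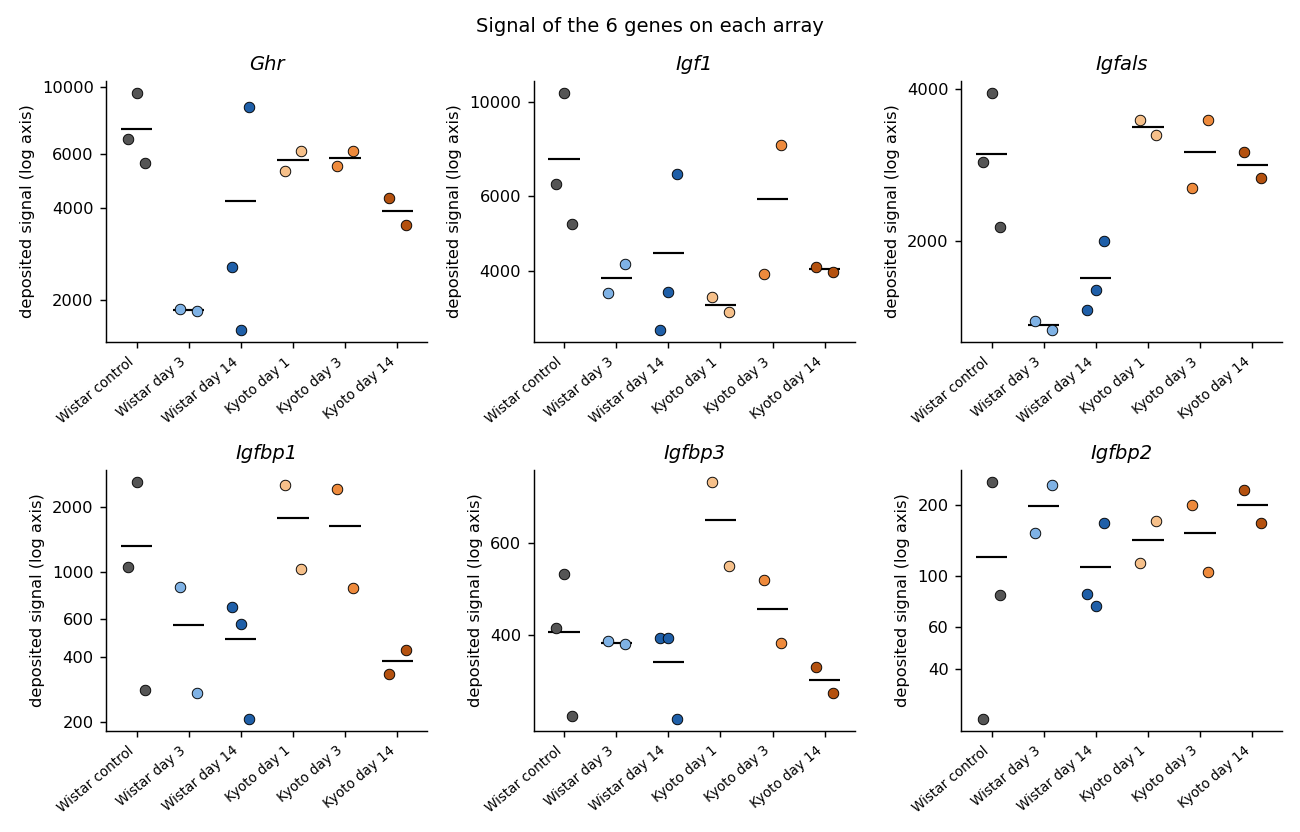
Deposited signal of the representing probe set of each gene (for Igfbp2 the one with a value on every array) on a log axis, 1 point per array, by group; horizontal lines are group means. Ghr on both Wistar day 3 arrays (1876 and 1850) lies below all controls (5604 to 9532), and 1 Wistar day 14 array (8545) lies apart from the other 2.

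Igf1, the growth factor that carries the endocrine output of the axis, was less distinct between groups. Its brightest probe set read 6399, 10492 and 5159 on the Wistar controls, 3548 and 4141 at Wistar day 3, and 2897, 3572 and 6759 at Wistar day 14. Both day 3 arrays were below the controls, and the third day 14 array was again among the controls. In Kyoto rats it read 3464 and 3194 at day 1, 3930 and 7907 at day 3, and 4075 and 3982 at day 14, with 1 day 3 array far above the other.
The Wistar differences from control were -0.52 ± 0.34 at day 3 (adjusted p = 0.638) and -0.69 ± 0.30 at day 14 (adjusted p = 0.893), neither past the threshold. Without the array labelled Wistar control 2 they were -0.30 and -0.47. Kyoto and Wistar differed by 0.22 ± 0.25 over the mean of both days (95% interval -0.33 to 0.76), and without Kyoto day 3 replicate 2 by -0.05. Ranked by mean normalized log2 signal, the order was Wistar control, Kyoto day 3, Wistar day 3, Kyoto day 14, Wistar day 14 and Kyoto day 1, and every pair of neighbours in it overlapped.
Of the 4 other Igf1 probe sets, the one of the same transcript record followed the brightest (r = 0.903), 2 did so less (0.614 and 0.597) and 1 did not (-0.085). At Wistar day 3 all 5 had a lower mean than controls, by -0.54 to -0.18 log2, and at day 14 the least like one was 0.05 higher.

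Igfals, which encodes the acid-labile subunit, was higher in Kyoto than in Wistar livers on orotic acid, the 1 call among the 5 genes tested. It read 1386 and 1326 on the Wistar day 3 arrays and 1458, 1594 and 1996 at Wistar day 14. In Kyoto rats it read 2538 and 3468 at day 3 and 2996 and 2660 at day 14. All 4 Kyoto arrays lay above all 5 Wistar arrays at these days.
Over the mean of days 3 and 14 the difference was 0.90 ± 0.20 log2 (1.87-fold higher in Kyoto, limma adjusted p = 0.0249). In this comparison 3.25% of features passed, 1.26% as higher in Kyoto, and 5.08% were higher with no overlap. The difference was much the same at each day, 0.95 ± 0.29 at day 3 (adjusted p = 0.186) and 0.85 ± 0.27 at day 14 (adjusted p = 0.206), and the strain by time term was -0.10 ± 0.40 (95% interval -0.95 to 0.75).
The call did not hold in several settings, although the difference stayed between 0.74 and 1.06 when single arrays were left out. The adjusted p rose to 0.113 without Kyoto day 3 replicate 2, where the difference was 0.74. Leaving out Kyoto day 14 replicate 1 gave 0.112 and leaving out Kyoto day 14 replicate 2 gave 0.0885. Leaving out Wistar day 3 replicate 1 gave 0.0852, and Wistar day 3 replicate 2, 0.0836. With the lot batch as a block the difference was 0.89 (adjusted p = 0.0929), and within lot batch 1 it was 0.98 at day 3 (2 against 1 arrays) and 0.99 at day 14 (2 against 2). With no filter on low values the adjusted p was 0.0698, and with the mean of the probe sets of a gene the difference was 0.81 (adjusted p = 0.132).

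Markers of resident macrophages and of sinusoidal endothelium had higher means in Kyoto, the same direction as Igfals. Of 11 Kupffer cell and macrophage markers listed, 6 were tested, all 6 had a higher mean in Kyoto over days 3 and 14, and 2 passed. These were Ctss, a lysosomal protease, at 0.84 ± 0.17 (limma adjusted p = 0.0138) and Clec4f, a Kupffer cell lectin, at 0.82 ± 0.20 (limma adjusted p = 0.0418). Ctss lost the call without either Kyoto day 14 array, either Wistar day 3 array or Kyoto day 3 replicate 1 (adjusted p up to 0.0755). Clec4f lost it without any 1 Kyoto array of days 3 and 14, either Wistar day 3 array, Wistar day 14 replicate 1 or 2, or Wistar control 3 (adjusted p up to 0.189). The summed signal of the list ran from 8952 to 9571 at Kyoto day 3 and from 5841 to 5870 at Wistar day 3, with 0 markers at the floor on all arrays; at day 14 it ran from 6793 to 8778 in Kyoto and from 4940 to 6852 in Wistar. The 6 macrophage markers had a median difference of 0.58 and the 3 endothelial markers tested, of 11 listed, one of 0.56, all 3 higher in Kyoto and 0 past the threshold; Kdr, a receptor for vascular endothelial growth factor, differed by 0.64 ± 0.20 (limma adjusted p = 0.108). The summed signal of the 4 endothelial markers measured ran from 1267 to 1606 at Kyoto day 3 and from 1169 to 1174 at Wistar day 3, and from 1355 to 1522 and from 995 to 1050 at day 14, with 0 markers at the floor on all arrays. The 7 hepatocyte markers had a median difference of 0.02 in the same comparison, with 5 higher and 2 lower. The 5 stellate cell and fibroblast markers tested had one of 0.09, with 4 higher and 1 lower. The 2 red blood cell markers tested had one of 0.31, and both were higher. Over all features the median was 0.03 and 45.6% were lower in Kyoto. The part of the cell makeup in the Igfals value was not tested, and in whole liver fewer cells of a type and less RNA per cell cannot be told apart.

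Against controls, Igfals was low in fed Wistar livers without passing. The controls read 2863, 3929 and 2131, all above the day 3 and day 14 values given above. The difference was -0.81 ± 0.27 at day 3 (1.76-fold lower, adjusted p = 0.301) and -0.70 ± 0.24 at day 14 (1.62-fold lower, adjusted p = 0.893). Groups without overlap on the lower side made up 19.6% of features at day 3 and 6.34% at day 14. Without the array labelled Wistar control 2 the differences were -0.61 and -0.49. Between the 2 arrays with no lot batch given, the day 14 difference was -0.04, and within lot batch 1 it was -1.02.
At Kyoto day 1, Igfals read 3476 and 3244, the highest group mean of the 6. Both lay above the Kyoto day 14 arrays, and 1 of the day 3 arrays (3468) lay between them. The difference from day 1 to day 14 was -0.38 ± 0.29 (adjusted p = 0.689). Among all 6 groups the moderated F test of limma gave Igfals an adjusted p of 0.0656, where 1.89% of features passed.
The 2 other Igfals probe sets moved alike. One, of the same transcript record as the brightest, correlated with it at r = 0.949 and differed by 0.90 ± 0.27 between strains over both days. The other, of another record, correlated at r = 0.791 and differed by 0.64 ± 0.45. In a fit of every probe set neither passed (adjusted p = 0.201 and 0.678), nor did the brightest (adjusted p = 0.0743).

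**Figure D2:**
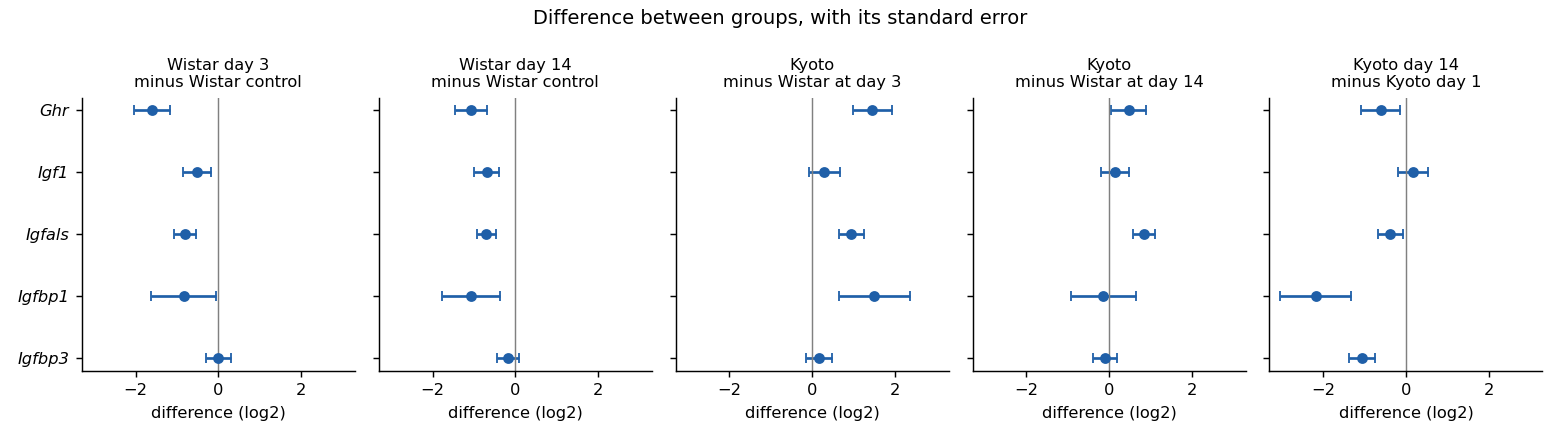
Difference in normalized log2 signal between groups for the 5 genes tested, points with standard errors from the limma fit, 1 panel per comparison. Ghr and Igfals lie on the left in both Wistar feeding panels (-1.60 and -0.81 at day 3) and on the right between strains at day 3 (1.45 and 0.95).

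Igfbp1, whose product binds IGF-1 and varies quickly with feeding and insulin, had the widest spread within groups. It read 1045, 2624 and 281 on the Wistar controls, against 206 to 2624 over the whole series. The 2624 belongs to the array labelled Wistar control 2, whose values go against its strain label; the other 2 controls still differed, 1045 against 281. It read 852 and 272 at Wistar day 3, and 681, 568 and 206 at Wistar day 14. Kyoto arrays read 2517 and 1025 at day 1, 2433 and 838 at day 3, and 334 and 433 at day 14. The 2517 was on Kyoto day 1 replicate 1, the array least like the others. The 2 Kyoto day 14 arrays lay below all 4 Kyoto arrays of days 1 and 3.
The difference between Kyoto days 14 and 1 was -2.18 ± 0.86 log2 (4.54-fold lower, adjusted p = 0.412) and did not pass. In that comparison 0.0524% of features passed and 19.1% were lower with no overlap. Between Kyoto days 14 and 3 it was -1.88 ± 0.86 (adjusted p = 0.969), where 0% of features passed, 88 had an unadjusted p under 0.05 and 23% were lower with no overlap. Wistar differences from control were -0.84 ± 0.78 at day 3 and -1.08 ± 0.70 at day 14, each smaller than the control SD of 1.56, which includes that array. Without it they were -0.10 and -0.34. The day 3 value went to 0.004 without Wistar day 3 replicate 2, and the day 14 value to 0.18 without the array labelled Wistar control 2 and Wistar day 14 replicate 3.

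Igfbp3, which encodes the main carrier of IGF-1 in blood and is made in liver largely outside hepatocytes, had overlapping signals in the 3 Wistar groups and successively lower ones at Kyoto days 1, 3 and 14. It read 413, 525 and 280 on the Wistar controls, 389 and 385 at day 3, and 395, 395 and 276 at day 14. The Wistar groups overlapped, and the differences from control were -1e-04 ± 0.29 at day 3 and -0.17 ± 0.26 at day 14. In Kyoto rats it read 788 and 544 at day 1, 511 and 387 at day 3, and 348 and 310 at day 14, each later pair below the earlier one; from day 1 to day 3 the same held for 12.6% of features.
The difference between Kyoto days 14 and 1 was -1.07 ± 0.32 log2 (2.09-fold lower, limma adjusted p = 0.247), which did not pass. Without Kyoto day 1 replicate 2 it was -1.35 (adjusted p = 0.0431), and without Kyoto day 1 replicate 1, which has blank rows, it was -0.79. Markers of stellate cells and fibroblasts were also lower at Kyoto day 14 than at day 1: all 5 tested had a lower mean, with a median of -0.92 and 0 past the threshold, and the summed signal of the 6 measured ran from 8654 to 8669 at day 14 and from 10500 to 12380 at day 1. At day 3 it ran from 6034 to 8553, below day 14, so that it did not follow the order of Igfbp3 over the 3 days. Between Kyoto days 14 and 1 the 6 macrophage markers tested had a median difference of 0.009, with 3 higher and 3 lower. The 3 endothelial markers tested had one of 0.06, with 2 higher and 1 lower. The part of any of these cell types in the Igfbp3 value was not tested. The other Igfbp3 probe set lay at the floor on 11 arrays.

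Igfbp1 and Igfbp3 were high and low on the same arrays. Over the 14 arrays, Pearson's r was 0.86 (permutation p = 3e-05, adjusted 0.0003 over the 10 pairs of the 5 genes) and Spearman's rho 0.832 (permutation p = 0.00053, adjusted 0.0053). Without the 2 arrays farthest from the median of Igfbp1, r was 0.817. It was 0.864 within the 8 Wistar arrays and 0.877 within the 6 Kyoto arrays, and 0.886 for the deviations from group means. Among the controls the array highest in Igfbp1 (2624) was highest in Igfbp3 (525) and the lowest (281) was lowest (280). The permutations, for this pair and the others, shuffled all 14 arrays without regard to group. Differences between group means therefore count toward these p-values.
Ghr and Igfals gave r = 0.781 (permutation p = 0.00138, adjusted 0.0069; rho = 0.64, permutation p = 0.0161, adjusted 0.0806), 0.707 without the 2 arrays farthest from the median of Ghr, 0.839 in Wistar, 0.558 in Kyoto and 0.536 for the deviations from group means. The other 8 pairs did not pass; Igf1 and Igfals, with r = 0.416 over all arrays (permutation p = 0.143, adjusted 0.238), reached 0.906 within the 8 Wistar arrays, 0.264 within the 6 Kyoto arrays and 0.941 for the deviations from group means, the highest of the 10 pairs on that measure.

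**Figure D3:**
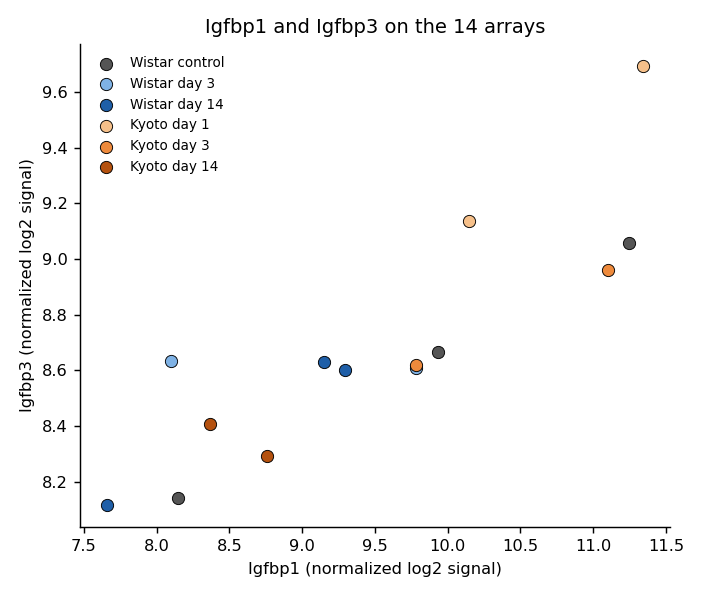
Normalized log2 signal of Igfbp1 (x axis) against Igfbp3 (y axis), 1 point per array, coloured by group. The points rise together over the 14 arrays (r = 0.86), and the Wistar controls lie apart from one another on both axes.

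Igfbp2, the binding protein known for its rise when growth hormone action is low, was too dim to test. Its probe set with a value on every array read 24.3, 253 and 82.3 on the Wistar controls, 152 and 244 at Wistar day 3, and 83.4, 74.3 and 168 at Wistar day 14. Kyoto arrays read 113 and 171 at day 1, 201 and 103 at day 3, and 234 and 168 at day 14. Every pair of groups overlapped except Wistar and Kyoto day 14, where the highest Wistar and the lowest Kyoto array both rounded to 168. On 5 of the 14 arrays it lay at the floor, so these values have no order there. The other 2 probe sets had values on 11 arrays, up to 145 and up to 124.

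Read side by side, all 5 genes tested had a lower mean in Wistar rats at both days than in controls, against 54.9% of all features at day 3 and 54% at day 14. The medians were -0.81 and -0.70, against -0.04 and -0.02 over all features. Both medians include the array labelled Wistar control 2, which carried the highest control signal of each gene. Without that array Ghr, Igf1, Igfals and Igfbp1 stayed lower at both days, each by less than with it. Both comparisons share the 3 controls, and the sign is not firm for every gene: Igfbp3 at day 3 turned in 9 of 14 fits that left out 1 array, and without the array labelled Wistar control 2 it was 0.22 at day 3 and 0.05 at day 14. Between Kyoto and Wistar at day 3 all 5 were higher in Kyoto (median 0.95, against 0.05 over all features, of which 45.4% were lower). Of the 5, Igf1, Igfbp1 and Igfbp3 had overlapping groups. This comparison shares the 2 Wistar day 3 arrays with the one against controls. At day 14, 3 of 5 were higher in Kyoto, where 47.8% of all features were lower. Igfals was higher there without overlap, as for 15.1% of features. None passed at either day, where 0.21% and 0.681% of features passed; 239 and 185 had an unadjusted p under 0.05.
The order of group means differed between genes. Order and overlap here are those of the normalized log2 signals, which can differ from those of the deposited signals. Ghr ran from Kyoto day 1 and Wistar control, 0.005 log2 apart, to Wistar day 3. Only Kyoto days 3 and 14 among its neighbours did not overlap, and 23% of features were lower at day 14 in that way. Igfals ran from Kyoto day 1 through the other Kyoto groups and the controls to the 2 fed Wistar groups, with gaps that did not overlap after Kyoto day 1 and after the controls. Kyoto day 1 was highest for Igfbp1 and Igfbp3 as well, and lowest for Igf1.

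**Figure D4:**
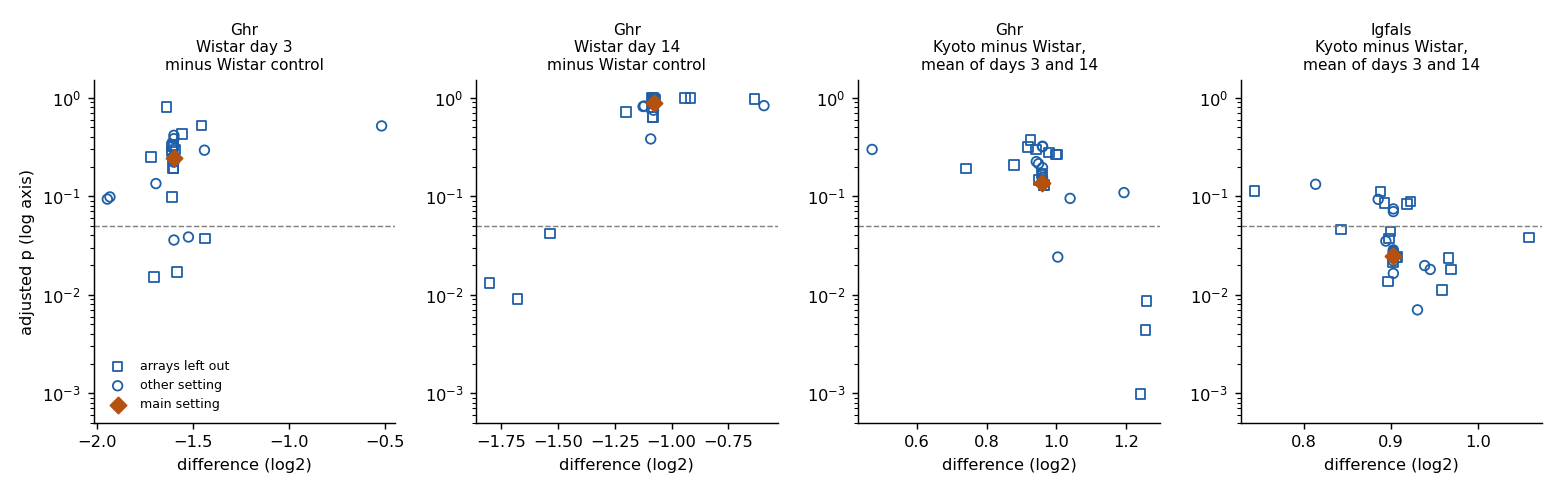
Difference (x axis, log2) against adjusted p (y axis, log axis) for 4 results under every setting tried, squares for fits with arrays left out, circles for other settings and a diamond for the main setting; the dashed line is the threshold of 0.05. The Ghr difference at Wistar day 14 falls below the line only where Wistar day 14 replicate 3 was left out, alone or with other arrays, and Igfals (0.90, adjusted p = 0.0249) lies close to the line.

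Other genes of the pathway came from 4 lists with 60 genes, of which 37 had a probe set and 24 were tested. None of the 24 passed in any of the 10 comparisons. Of the receptor's signalling genes 6 of 16 were tested, and at Wistar day 3 their median difference from control was -0.17, with 1 higher and 5 lower. Cish, a feedback inhibitor that STAT5 induces, differed by 1.57 ± 0.93 between Kyoto days 14 and 1 (adjusted p = 0.586), and was at the floor on 5 arrays, so this is not a measured size. Prlr, the prolactin receptor, differed by -0.60 ± 0.32 between strains over both days (adjusted p = 0.429).
Of 20 other IGF ligands, receptors, binding proteins and signalling genes 3 were tested. Igf2, the fetal ligand, had group means of 7.92 ± 0.20 (SD, n = 3) in Wistar controls and 7.23 ± 0.25 (SD, n = 2) at Wistar day 3, a difference of -0.69 ± 0.29 (limma adjusted p = 0.428). Akt1, a kinase below the IGF-1 and insulin receptors, differed by -0.57 ± 0.28 between Kyoto days 14 and 1 (adjusted p = 0.515).

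Of the transcription factors and secreted proteins that growth hormone regulates in liver, 10 of 14 were tested. At Wistar day 3, 9 had a higher mean than controls and 1 a lower one (median 0.17), where 54.9% of all features were lower. At Wistar day 14, 4 were higher and 6 lower (median -0.06), where 54% of all features were lower. Onecut1, a hepatocyte factor under growth hormone control, had its higher mean at different days in the 2 strains: its log2 mean was 9.19 at Wistar day 3 and 7.59 at Wistar day 14, and 8.33 and 9.36 at the same days in Kyoto. The strain by time term was 2.63 ± 0.68 (limma adjusted p = 0.817) and did not pass. Foxa2, a forkhead factor, differed by 1.49 ± 0.47 between Kyoto days 14 and 1 (adjusted p = 0.269).
Of 10 genes that answer insulin and fasting 5 were tested, and all 5 had a higher mean in Kyoto than in Wistar over both days (median 0.48). The list was not sorted by the direction in which its genes answer, so this count has no reading as 1 response. Over all features the median was 0.03 and 45.6% were lower. Of the 5 genes, 1 had an unadjusted limma p under 0.05. Sds, the serine dehydratase of gluconeogenesis, had a log2 mean of 12.2 at Kyoto day 14 and 10.2 at Wistar day 14, a difference of 1.97 ± 0.46 (limma adjusted p = 0.0922). Insig1, which retains SREBP in the endoplasmic reticulum, differed by -1.08 ± 0.35 between Wistar day 3 and control (adjusted p = 0.288). Between strains Insig1 was higher in Kyoto at day 3 (0.78) and lower at day 14 (-0.61), and over both days it differed by 0.08 ± 0.26.

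The features most like each gene over the 14 arrays, of 1501 with 1 symbol, are given as a description; arrays of a group share strain and day. For Ghr they were Slc6a13, a transporter (r = 0.892), Gng5 (0.819) and Plin2, the lipid droplet coat protein (0.809). For Igfals they were Hagh, a glyoxalase (0.922), Afm, a secreted albumin relative (0.901), and Irf7, an interferon factor (0.867). For Igf1 they were C8b, a complement component (0.805), Rabggtb (0.768) and Gas5 (0.76). Igfbp1 and Igfbp3 were each in the other's 3 nearest; Myl12a, a myosin light chain, was in both (0.819 and 0.878), with Bad (0.806) for Igfbp1 and Cyth2 (0.834) for Igfbp3.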

How the data were processed

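Liver RNA of 14 arrays was compared in 6 groups taken from the source labels. The deposited values are intensity signals per probe set, which the authors computed with MAS5 according to the submitters' processing notes. Its version and scaling target were not stated, and 11 arrays share the median 233.1972, so they had been scaled before deposit. Rows with a value on every array, without control probe sets, were quantile normalized as log2 signals with limma 3.58.1 in R 4.3.3 and raised to a floor at the 25th percentile (6.85). A gene was represented by its probe set with the highest mean. The upper 60% of 3181 features by mean, 1909, were tested in 1 linear model of 6 group means (8 residual degrees of freedom, eBayes with an intensity trend) over 10 contrasts and a moderated F test, with Benjamini-Hochberg adjustment over all features and a threshold of 0.05. The adjusted p-values are from this fit unless a setting is named. The model was also run on simulated data with independent normal noise for each feature. Those data held no batch and no array at odds with its label, so they do not bear on such arrays. Correlations used 100000 permutations of all arrays, without regard to group, with SciPy 1.17.1, two-sided.

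The genes and lists were chosen with earlier results of these data known. Named were the 6 genes, of each other pathway list up to 4 members past the threshold or otherwise the 2 with the smallest p, and the 3 features most like each gene; marker genes are named only beside a result they move with or as a check of the labels. The number of arrays limits the precision. Alternatives were 2 other scalings, 2 other floors, 2 other filters, 2 other probe set rules, 2 blocks, array weights, 2 variance settings, only the groups compared, each array left out, and 2 sets of arrays left out that were chosen after seeing the data. Promoter sequences came from RefSeq (build GRCr8), where all 6 genes matched; replicate numbers follow accession order.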

Additional observations from a re-analysis of the deposited data

How the results depend on the processing

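No direction of a call reversed under any alternative run. The count of genes past the threshold was 0 in all comparisons but Kyoto against Wistar over the mean of days 3 and 14, where it was 1 (Igfals). That count went to 0 with no filter on low values, with the mean of the probe sets of a gene, with every probe set on its own and with the lot batch as a block, and to 2, Ghr added, with array weights, without the 3 arrays with blank rows, and without both the array labelled Wistar control 2 and Wistar day 14 replicate 3. Single arrays left out gave 0 to 2. For Wistar day 14 against control the count was 1 without the 3 arrays with blank rows and 1 without both arrays named, and 0 to 1 with single arrays left out. For Wistar day 3 against control it was 1 in those 2 settings, 1 with array weights and 1 with only the groups compared, and 0 to 1 with single arrays left out. For Kyoto against Wistar at day 3 it was 1 in the same 2 settings and 1 with only the groups compared, and 0 to 1 with single arrays left out. For Kyoto day 14 against day 1 single arrays left out gave 0 to 1. For any difference among the 6 groups it was 1 with array weights, 1 without the 3 arrays with blank rows, 2 without both arrays named, and 0 to 1 with single arrays left out. The cause of these changes was not tested, except that the settings without a filter or with every probe set test more features. The signals as the authors scaled them move the median of all features at Wistar day 3 against control from -0.04 to -0.18 and at Kyoto against Wistar at day 3 from 0.05 to 0.12, and the report's values are relative to the quantile scaling. No paired analysis was possible because the replicate numbers follow accession order and pair no samples. With 2 or 3 arrays a group, the number of arrays limits what can be detected.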
